A study of Agaricus bisporus with 12 samples.

Results

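Laccases 4 to 12 are the laccase genes of Agaricus bisporus, the white button mushroom, other than laccase-1, laccase-2 and laccase-3. The genes were chosen by their names in the deposited annotation: laccase-4 (gene ‘186398’), laccase-5 (gene ‘135711’), laccase-7 (gene ‘117501’), laccase-8 (gene ‘206911’), laccase-9 (gene ‘194714’), laccase-10 (gene ‘120944’), laccase-11 (gene ‘209229’) and laccase-12 (gene ‘184993’). They are 8 of the 9502 genes in the files, and all 8 had reads in every library. Laccase-6 is not analysed here.

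Laccases are secreted multicopper oxidases. They take electrons from phenols and other aromatic compounds one at a time and pass them through bound copper to molecular oxygen, which becomes water. In litter and wood fungi they are known for the oxidation of lignin-derived phenols, and also for pigment formation and for roles in fruiting. In A. bisporus, laccase-1 and laccase-2 are the enzymes best known from colonised compost. The separate substrates of laccases 4 to 12 are not part of these data.

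RNA was sequenced from compost colonised by strain A15, a commercial heterokaryon, so every sample shares one genotype. The compost, of wheat straw with horse and chicken manure, gypsum and water, was inoculated with spawn and kept at 25 °C for 16 days before a casing of peat and lime was added. A flush is a wave of mushrooms that is picked. There were 6 stages with 2 libraries each: spawning (the colonised compost at 16 days), pinning (when primordia form), the first flush and the time after it, called after first flush, and likewise the second flush and after second flush. The labels describe compost samples at every stage, not mushrooms, and do not tell whether replicate libraries are of different beds. The p-values therefore cover the spread between these samples alone, and it may be technical. In such bulk samples, fewer cells and less RNA per cell cannot be told apart.

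Each library held 7.27M to 9.34M reads (M for mega) placed uniquely in genes, and 9189 to 9270 genes had a read. Of the 9502 genes, 8814 had enough reads to be tested, among them all 8 laccases. Levels are in RPKM, uniquely placed reads scaled to the gene's length and to the library's total. Replicate libraries had a Pearson r of 0.974 to 0.992 in log2 counts per library total across tested genes, with totals adjusted by the TMM method described below. The lowest was after first flush, where 520 genes lay over 2-fold apart. Both first flush libraries carry a letter in the submitters' codes that differs from the remaining libraries, so that this stage and any batch behind the letter cannot be told apart in the results below that use them. Markers of mushroom tissue (6 tyrosinases and 4 lectins, 1 of them a mannose-binding lectin listed by name only) were all present in every compost library, with none at 0. They were chosen by name. Tyrosinases 120049 and 120050 and lectin 222139 had their highest means at spawning (11.4, 14.7 and 83.5 RPKM), the other genes later. The most abundant, XCL-like lectin 194894, weighs most in their sums. It averaged 115 RPKM at spawning, 1419 RPKM at pinning and 501 ± 498 RPKM after first flush.

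The minor laccases were most often highest at first flush. That stage held the highest mean of 6 genes (laccases 4, 5, 7, 8, 9 and 11), while laccase-10 was highest at spawning and laccase-12 after first flush. The share of all genes highest at first flush was not counted. Laccase-8 did not differ there from after second flush, its next stage (edgeR adjusted p = 0.800), and their libraries overlapped. Laccase-7 did not differ from pinning, its next stage (edgeR adjusted p = 0.108). Laccase-9 was the most abundant of the 8 at every stage, and laccase-8 and laccase-10 were at the bottom. Over the 6 stages 6 of the 8 genes changed (adjusted p under 0.05, Benjamini-Hochberg, in the quasi-likelihood test of edgeR), beside 85.6% of all tested genes. Laccase-8 (adjusted p = 0.188) and laccase-12 (adjusted p = 0.0521) did not pass this edgeR test. DESeq2 called laccase-12 over the stages (adjusted p = 0.00365), as did edgeR without second flush replicate 1 (0.00115), without second flush replicate 2 (0.00162) or without after first flush replicate 2 (0.0380). The edgeR call of laccase-10 was lost without spawning replicate 1 (adjusted p = 0.0568).

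**Figure D1:**
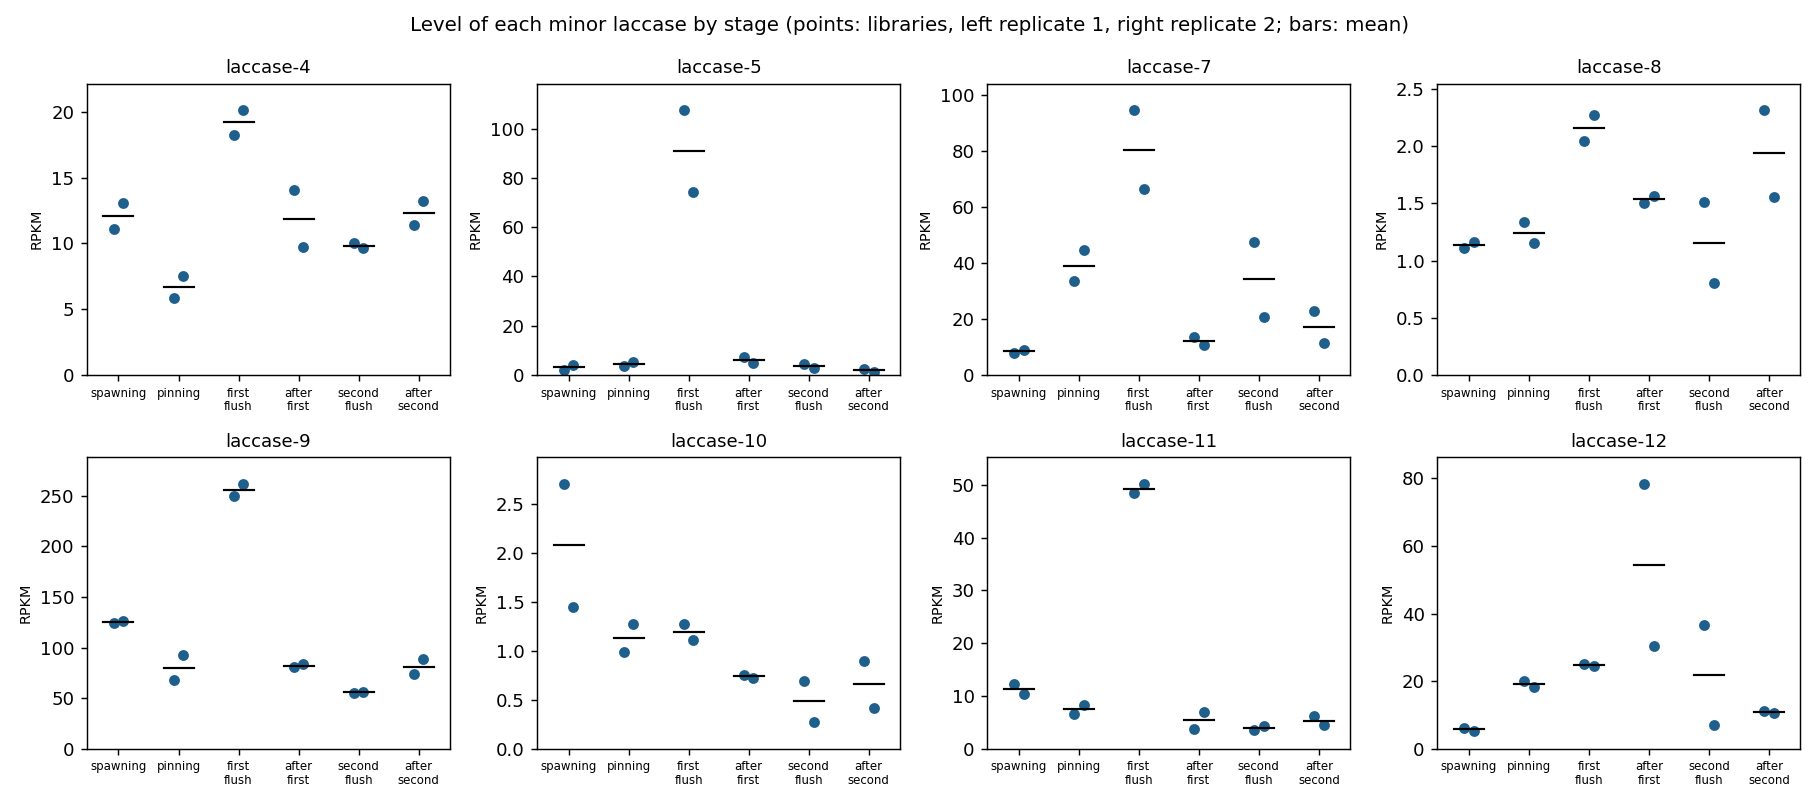
Level of each of the 8 minor laccases in RPKM (vertical axis, linear from 0 and scaled per gene) at the 6 stages in order of time, with a point per library and a bar at the mean. Laccases 4, 5, 7, 9 and 11 had both first flush libraries above every other library, and laccase-12 had its 2 second flush libraries at 36.7 and 7.10 RPKM. The share of all genes with both first flush libraries on top was not counted.

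Laccase-9 was well measured at every stage, with 874 to 4163 reads per library over 1745 bases and 93.6% to 95.6% of the gene covered. It had 124 and 127 RPKM at spawning, 67.9 and 92.5 RPKM at pinning and 250.1 and 262 RPKM at first flush. Later it had 80.9 and 83.4 RPKM after first flush, 55.0 and 56.2 RPKM at second flush and 73.9 and 88.5 RPKM after second flush. The first flush libraries stood above all others and the spawning pair came next, with no overlap with any other stage. In the order of means, first flush and spawning differed (log2 change 0.67, SE 0.16, edgeR adjusted p = 0.00266). After first flush, after second flush and pinning, with means of 82.2, 81.2 and 80.2 RPKM, had overlapping libraries and did not differ in the test. Second flush was the lowest stage and lay below pinning (log2 change −0.65, SE 0.16, edgeR adjusted p = 0.0224), a call lost without pinning replicate 2 (0.188), second flush replicate 1 (0.108) or second flush replicate 2 (0.0609). Among all genes with reads, laccase-9 stood above 94.8% of genes at first flush and above 72.5% at second flush.

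Laccase-11 had the same highest and lowest stages as laccase-9 at a lower level. It had 12.3 and 10.3 RPKM at spawning, 6.60 and 8.26 RPKM at pinning and 48.4 and 50.2 RPKM at first flush. It then had 3.65 and 7.04 RPKM after first flush, 3.48 and 4.32 RPKM at second flush and 6.12 and 4.42 RPKM after second flush. The first flush pair was far above the rest, and the after first flush pair overlapped those of pinning, second flush and after second flush. First flush was 12.6 times second flush by mean RPKM. Of 15 pairs of stages, edgeR called 10 for laccase-11 and 10 for laccase-9. Among all 8814 tested genes, calls per pair ran from 721 (after second flush against second flush) to 5636 (first flush against spawning).

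Laccase-5 had the widest range of the 8, with a first flush mean 46.8 times that after second flush. It had 1.92 and 4.17 RPKM at spawning, 3.61 and 5.42 RPKM at pinning and 108 and 74.1 RPKM at first flush. Its levels were 7.07 and 4.70 RPKM after first flush, 4.48 and 2.82 RPKM at second flush and 2.53 and 1.35 RPKM after second flush. Outside the first flush every library was at 7.07 RPKM or below, and neighbouring stages in the order of means overlapped and did not differ in the test. At first flush its place among the 8 genes was second, at 90.8 ± 23.6 RPKM (SD, n = 2), whereas 4 or 5 of the others stood above it at the other stages.

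Laccase-4 varied least among the 5 genes that stood above every other library at first flush. It had 11.1 and 13.0 RPKM at spawning, 5.87 and 7.54 RPKM at pinning and 18.3 and 20.1 RPKM at first flush. The later levels were 14.1 and 9.70 RPKM after first flush, 10 and 9.62 RPKM at second flush and 11.4 and 13.2 RPKM after second flush. Pinning was its lowest stage, with both libraries below all others, and the first flush mean was 2.86 times the pinning mean. Between these extremes, after second flush, spawning, after first flush and second flush followed one another with overlapping libraries and no call between neighbours.

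Laccase-7 was already raised at pinning and was also high at second flush. It had 7.79 and 8.95 RPKM at spawning, 33.6 and 44.4 RPKM at pinning and 94.5 and 66.3 RPKM at first flush. It had 13.7 and 10.5 RPKM after first flush, 47.3 and 20.8 RPKM at second flush and 22.9 and 11.5 RPKM after second flush. Pinning and first flush stood above spawning without overlap, and the second flush library pair was 2.28-fold apart. None of its neighbouring stages in the order of means differed in edgeR's test, although 9 of its 15 pairs did.

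Laccase-12 kept a different order from the others. It had 6.24 and 5.16 RPKM at spawning, 20.0 and 18.3 RPKM at pinning and 25.1 and 24.4 RPKM at first flush. It had 78.4 and 30.4 RPKM after first flush, 36.7 and 7.10 RPKM at second flush and 11.3 and 10.5 RPKM after second flush. Up to the first flush the libraries of a stage were within 1.21-fold of each other, but they were 2.58-fold apart after first flush and 5.17-fold apart at second flush. Both after first flush libraries stood above every library of the earlier stages. Only 1 of its 15 pairs passed the edgeR test, after first flush against spawning (log2 change 2.87, SE 0.75, adjusted p = 0.0111), beside 63.3% of all genes called in either direction in that pair. The call was lost without spawning replicate 1 (adjusted p = 0.0519), spawning replicate 2 (0.0649) or after first flush replicate 1 (0.0596).

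Laccase-8 and laccase-10 were barely expressed. Laccase-8 had 13 to 37 reads per library and 28.9% to 55.8% of its length covered. It had 1.11 and 1.16 RPKM at spawning, 1.34 and 1.15 RPKM at pinning and 2.05 and 2.27 RPKM at first flush. It had 1.503 and 1.57 RPKM after first flush, 1.51 and 0.800 RPKM at second flush and 2.32 and 1.56 RPKM after second flush. edgeR called none of its 15 pairs, and 1 pair had an unadjusted p under 0.05. DESeq2 called it in none of the comparisons below, and with all libraries no difference between stages was detectable at this depth. Without second flush replicate 1, edgeR called it lower at second flush than at first flush (log2 change −1.28, adjusted p = 0.0254).

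Laccase-10 had 4 to 31 reads per library and 12.4% to 63.6% of its length covered. It had 2.71 and 1.45 RPKM at spawning, 0.986 and 1.27 RPKM at pinning and 1.27 and 1.11 RPKM at first flush. It had 0.755 and 0.722 RPKM after first flush, 0.697 and 0.272 RPKM at second flush and 0.899 and 0.413 RPKM after second flush. Both spawning libraries lay above all later ones. Its 4 called pairs all had spawning as one side: the first flush and the 3 stages that followed it were each lower than spawning. Without spawning replicate 1 the call for after first flush was lost (edgeR adjusted p = 0.0573), as was that for first flush.

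At pinning, when primordia form, laccase-7 rose and laccases 4, 9 and 11 fell relative to spawning. Laccase-7 averaged 39.0 ± 7.7 RPKM at pinning and 8.37 ± 0.82 RPKM at spawning (SD, n = 2 each; log2 change 2.08, SE 0.43, edgeR adjusted p = 0.00303). Laccase-9 averaged 80.2 ± 17.4 RPKM at pinning and 125 ± 1.8 RPKM at spawning (log2 change −0.78, SE 0.16, edgeR adjusted p = 0.00147). Laccase-4 fell by 0.98 on the log2 scale (SE 0.22, edgeR adjusted p = 0.00248). Thus 1 of 8 genes was higher and 3 were lower, beside 29.3% of all tested genes higher and 25.2% lower, with a median log2 change of −0.37 for the 8 genes and 0.05 for all tested genes.

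The fall of laccase-11 at pinning was small (log2 change −0.74, SE 0.26, edgeR adjusted p = 0.0312). It was not called without any 1 of the 4 libraries of these stages, at adjusted p = 0.151 without spawning replicate 1, 0.0652 without spawning replicate 2, 0.182 without pinning replicate 1 and 0.0538 without pinning replicate 2. Laccase-12 was at 19.2 ± 1.2 RPKM at pinning and 5.70 ± 0.76 RPKM at spawning, a difference that did not pass (log2 change 1.62, SE 0.75, edgeR adjusted p = 0.104). Fitted on the libraries of these stages alone it did (edgeR adjusted p = 7.25e-07), and likewise without second flush replicate 1 (0.0104) or second flush replicate 2 (0.0108). The mushroom tissue markers, 3 of 10 higher and 3 lower, summed to 1531 and 2218 RPKM in pinning libraries and 369 and 361 RPKM in spawning libraries. Their part in these changes was not tested.

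At first flush 4 of the 8 genes rose over pinning and none fell, beside 25.1% of all tested genes higher and 23.6% lower. Laccase-5 averaged 90.8 ± 23.6 RPKM at first flush and 4.52 ± 1.28 RPKM at pinning (log2 change 4.10, SE 0.39, edgeR adjusted p = 4.46e-05). Laccase-11 averaged 49.3 ± 1.3 RPKM at first flush and 7.43 ± 1.18 RPKM at pinning (log2 change 2.51, SE 0.26, edgeR adjusted p = 2.79e-05). Laccase-9 averaged 256 ± 8.3 RPKM at first flush and 80.2 ± 17.4 RPKM at pinning (log2 change 1.45, SE 0.16, edgeR adjusted p = 3.93e-05). The rise of laccase-4 was 1.30 on the log2 scale (SE 0.21, edgeR adjusted p = 0.000477).

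The median log2 change of the 8 genes at this step was 1.06, against 0.03 for all tested genes. Laccase-7 differed by 0.82 (SE 0.38, edgeR adjusted p = 0.108) and was called by DESeq2 (adjusted p = 0.0499), on these stages alone in edgeR (0.00701) and in edgeR without second flush replicate 1 (0.0393) or replicate 2 (0.0432). No gene of the 8 was lower at an unadjusted p under 0.05 in edgeR, in DESeq2 or in limma. Mushroom tissue markers summed to 841 and 596 RPKM at first flush and 1531 and 2218 RPKM at pinning, with 3 of 10 higher and 2 lower. That sum rests mainly on 1 gene, the XCL-like lectin 194894, at 70.2 RPKM by mean at first flush and 1419 RPKM at pinning. Tyrosinase 135027 (268 RPKM at first flush and 125 RPKM at pinning) and tyrosinase 191507 (148 and 21.1 RPKM) were called higher. The markers' part in the result was not tested.

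After first flush 5 of the 8 genes fell relative to first flush and none rose, beside 26% of all tested genes lower and 26.1% higher. Laccase-5 averaged 5.88 ± 1.67 RPKM after first flush and 90.8 ± 23.6 RPKM at first flush (log2 change −3.97, SE 0.38, edgeR adjusted p = 3.52e-05). Laccase-11 averaged 5.35 ± 2.40 RPKM after first flush and 49.3 ± 1.3 RPKM at first flush (log2 change −3.23, SE 0.27, edgeR adjusted p = 5.01e-06). Laccase-7 averaged 12.1 ± 2.2 RPKM after first flush and 80.4 ± 20.0 RPKM at first flush (log2 change −2.76, SE 0.42, edgeR adjusted p = 0.000658). Laccase-9 fell by 1.67 on the log2 scale (SE 0.16, edgeR adjusted p = 1.19e-05).

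The fall of laccase-4 was the smallest (log2 change −0.72, SE 0.20, edgeR adjusted p = 0.0107), and it was not called without first flush replicate 2 (adjusted p = 0.0651) or without after first flush replicate 2 (log2 change −0.48, adjusted p = 0.0745). Laccase-12 went the other way without passing, at 54.4 ± 33.9 RPKM after first flush and 24.7 ± 0.51 RPKM at first flush (log2 change 1.11, SE 0.66, edgeR adjusted p = 0.198). Without second flush replicate 1 (adjusted p = 0.0319) or replicate 2 (0.0301), which carry its widest spread, edgeR called it higher. The median log2 change of the 8 genes was −1.19, against −0.01 for all tested genes. No gene of the 8 was higher at an unadjusted p under 0.05 in edgeR, DESeq2 or limma with all libraries. Mushroom tissue markers (3 of 10 higher, 5 lower) summed to 1315 and 363 RPKM after first flush and 841 and 596 RPKM at first flush, with the after first flush libraries on either side of the first flush ones. The markers' part in the result was not tested.

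**Figure D2:**
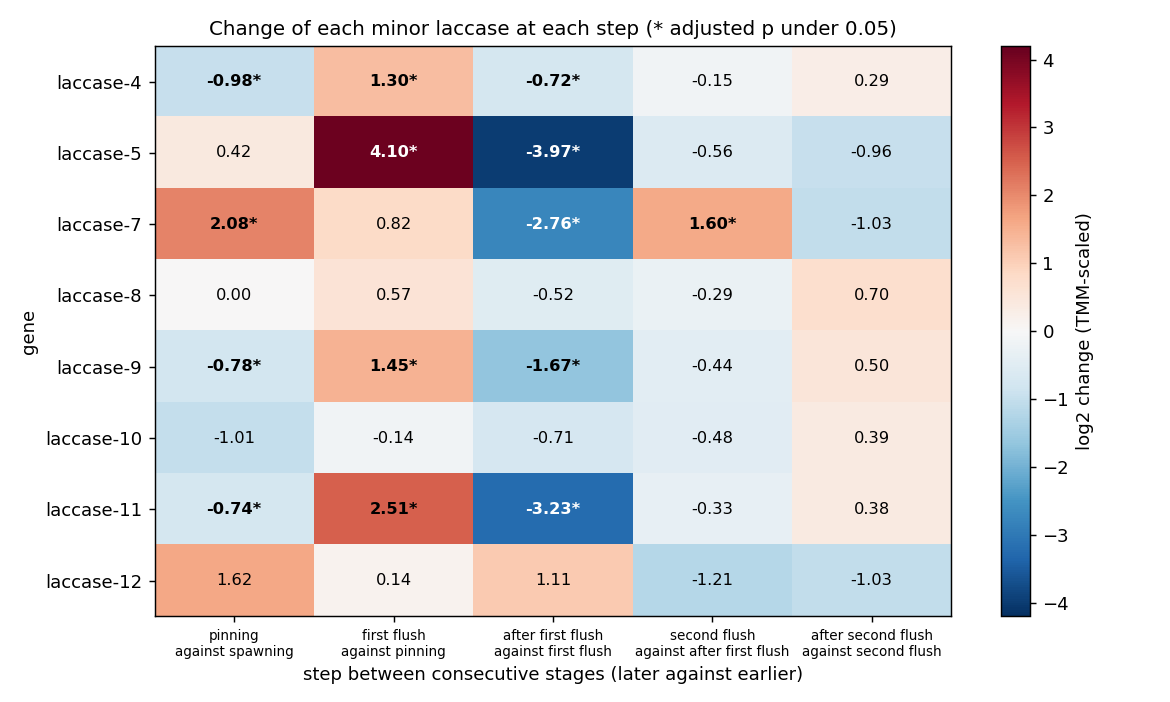
Log2 change of each minor laccase (rows) at each of the 5 steps between consecutive stages (columns), from edgeR on TMM-scaled counts, with later over earlier stage and an asterisk where the adjusted p was under 0.05. Laccase-5 had the largest rise, 4.10 at first flush, and the largest fall, −3.97 after it, while the last step holds no call.

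At second flush laccase-7 was the 1 gene called, beside 11.3% of all tested genes higher and 11% lower. It averaged 34.0 ± 18.8 RPKM at second flush and 12.1 ± 2.2 RPKM after first flush (log2 change 1.60, SE 0.41, edgeR adjusted p = 0.0254). The call was lost without second flush replicate 1, where the change was 0.95 (adjusted p = 0.109), without after first flush replicate 1 (0.0781) or replicate 2 (0.118), and on these stages alone (0.0940). The fit to these stages alone called 46 of 8602 genes. With all libraries, none of the 8 genes was called lower by DESeq2 or by edgeR with a term per stage. Laccase-9 was lower at an unadjusted p under 0.05 (log2 change −0.44, SE 0.16, edgeR adjusted p = 0.0678) and called in limma on RPKM (adjusted p = 0.0224). Laccase-12 differed by −1.21 (SE 0.66, edgeR adjusted p = 0.232), and by −2.76 without second flush replicate 1. The median log2 change of the 8 genes was −0.38, against −0.01 for all tested genes. Mushroom tissue markers, 3 of 10 higher and 0 lower, summed to 947 and 1127 RPKM at second flush and 1315 and 363 RPKM after first flush, and their part in the result was not tested.

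After second flush edgeR called none of the 8 genes relative to second flush, beside 5.29% of all tested genes higher and 2.89% lower. At an unadjusted p under 0.05 there was 1 gene higher and 1 lower, laccase-9 (log2 change 0.50, SE 0.16, edgeR adjusted p = 0.0774) and laccase-7 (log2 change −1.03, SE 0.40, edgeR adjusted p = 0.160). DESeq2 called 1 gene, laccase-7, lower (adjusted p = 0.0402), and limma called none. The median log2 change of the 8 genes was 0.33, against −0.01 for all tested genes. Mushroom tissue markers, 0 of 10 higher and 1 lower, summed to 336 and 333 RPKM after second flush and 947 and 1127 RPKM at second flush. Their part in these values was not tested.

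The entry into the second flush changed 4 genes differently from the entry into the first, by the test of the difference itself. That difference, second flush minus after first flush less first flush minus pinning, was −4.67 for laccase-5 (SE 0.55, edgeR adjusted p = 0.000234) and −2.84 for laccase-11 (SE 0.38, edgeR adjusted p = 0.000231) on the log2 scale. It was −1.89 for laccase-9 (SE 0.22, edgeR adjusted p = 0.000103) and −1.44 for laccase-4 (SE 0.30, edgeR adjusted p = 0.00269). Of all tested genes, 42% passed in either direction. For laccase-7 the difference was 0.79 (SE 0.56, edgeR adjusted p = 0.288).

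The steps out of the flushes differed for 5 genes, beside 39.4% of all tested genes in either direction. The difference, after second flush minus second flush less after first flush minus first flush, was 3.61 for laccase-11 (SE 0.38, edgeR adjusted p = 4.57e-05), 3.02 for laccase-5 (SE 0.59, edgeR adjusted p = 0.00343) and 2.17 for laccase-9 (SE 0.22, edgeR adjusted p = 3.43e-05). Laccase-7, at 1.73 (SE 0.56, edgeR adjusted p = 0.0381), was not called without any 1 of 9 of the 12 libraries (adjusted p 0.0508 to 0.142). Laccase-4, at 1.01 (SE 0.29, edgeR adjusted p = 0.0168), was not called without first flush replicate 2 (0.0547) or after second flush replicate 2 (0.0605). Both flushes' differences use the same first flush libraries.

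The flushes themselves differed for 5 genes, all lower at second flush than at first flush, beside 22.7% of all tested genes lower and 23% higher. Laccase-5 averaged 3.65 ± 1.17 RPKM at second flush and 90.8 ± 23.6 RPKM at first flush (log2 change −4.54, SE 0.40, edgeR adjusted p = 2.20e-05). Laccase-11 fell by 3.56 (SE 0.27, edgeR adjusted p = 2.67e-06), laccase-9 by 2.10 (SE 0.16, edgeR adjusted p = 2.46e-06) and laccase-4 by 0.87 on the log2 scale (SE 0.20, edgeR adjusted p = 0.00471). Laccase-7 was lower by −1.15 (SE 0.39, edgeR adjusted p = 0.0372), and the call was lost without second flush replicate 2, where the change was −0.71 (adjusted p = 0.155), and without first flush replicate 1 (0.176). It was also lost on these stages alone (0.109) and without either spawning library (0.0541 and 0.0544) or either after first flush library (0.0558 for each). Laccase-12 was at 21.9 ± 20.9 RPKM at second flush and 24.7 ± 0.51 RPKM at first flush. Laccases 8, 10 and 12 were not called with all libraries (log2 change −0.80, −1.19 and −0.10). Without second flush replicate 1 their changes were −1.28, −1.96 and −1.66. The remaining second flush library held 13 reads of laccase-8 and 4 of laccase-10. Without second flush replicate 2, laccase-12 differed by 0.62. Mushroom tissue markers, 2 of 10 higher and 4 lower, summed to 947 and 1127 RPKM at second flush and 841 and 596 RPKM at first flush, and their part in the result was not tested.

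Relative to spawning, first flush had 4 genes higher and 1 lower, beside 34.4% of all tested genes higher and 29.6% lower. The rises were 4.53 for laccase-5 (SE 0.41, edgeR adjusted p = 9.41e-06), 2.90 for laccase-7 (SE 0.43, edgeR adjusted p = 0.000328), 1.77 for laccase-11 (SE 0.25, edgeR adjusted p = 7.81e-05) and 0.67 for laccase-9. Laccase-10 fell by 1.15 (SE 0.42, edgeR adjusted p = 0.0301), a call that rested on 16 to 31 reads per library. It was lost without spawning replicate 1, where the change was −0.66 (adjusted p = 0.307), without either first flush library (0.0787 and 0.113), and in DESeq2 (0.0685). Laccase-12 (log2 change 1.76, SE 0.74, edgeR adjusted p = 0.0715) was called by DESeq2 (0.0326), on these stages alone (1.08e-07) and without second flush replicate 1 (0.00536) or replicate 2 (0.00573). In limma on log2(RPKM + 1), 6 genes were higher and 0 lower, with laccase-12 and laccase-4 as the added calls. Laccase-4 differed there by 0.63 (adjusted p = 0.0151), where the median of all genes was 0.38, and by 0.31 in edgeR. Mushroom tissue markers, 3 of 10 higher and 3 lower, summed to 841 and 596 RPKM at first flush and 369 and 361 RPKM at spawning, and their part was not tested. In contrast, laccase-1, laccase-2, laccase-3 and the laccase-2 small subunit were all called lower at first flush than at spawning, with a median log2 change of −3.04, against 1.22 for the 8 minor genes.

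After second flush, 3 genes were lower than at spawning and edgeR called none higher, beside 27.6% of all tested genes lower and 31.9% higher. Laccase-10 fell by 1.95 (SE 0.46, edgeR adjusted p = 0.00310), laccase-11 by 1.41 (SE 0.27, edgeR adjusted p = 0.000867) and laccase-9 by 0.93 on the log2 scale (SE 0.16, edgeR adjusted p = 0.000386). DESeq2 also called laccase-5 lower (adjusted p = 0.0213). At an unadjusted p under 0.05, 0 genes were higher in edgeR and DESeq2 and 1 in limma. On the libraries of these stages alone, laccase-12 was called higher (log2 change 0.62, edgeR adjusted p = 0.0145). Mushroom tissue markers, 1 of 10 higher and 4 lower, summed to 336 and 333 RPKM after second flush and 369 and 361 RPKM at spawning. Second flush against spawning, a pair with 53.5% of all genes called, had laccases 4, 9, 10 and 11 lower and laccase-7 higher (log2 change 1.75, SE 0.43, edgeR adjusted p = 0.00767). The laccase-7 call was lost without spawning replicate 1 (0.0535), and that of laccase-4 (log2 change −0.56, edgeR adjusted p = 0.0414) without any 1 of the 6 libraries of spawning, first flush and second flush (0.0522 to 0.239) and in limma.

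After second flush against after first flush, laccase-5 was the 1 gene called, beside 7.53% of all tested genes lower and 8.75% higher. It averaged 1.94 ± 0.84 RPKM after second flush and 5.88 ± 1.67 RPKM after first flush (log2 change −1.52, SE 0.44, edgeR adjusted p = 0.0439). The call was lost on these stages alone (0.0676) and without after first flush replicate 1 (0.219), after second flush replicate 1 (0.0790) or replicate 2 (0.198), and either pinning library (0.0567 and 0.0565). The fit to these stages alone called 223 of 8635 genes. Laccase-12 differed by −2.24 (SE 0.70, edgeR adjusted p = 0.0686), and DESeq2 called it lower (0.0147). It was called in edgeR without second flush replicate 1 (0.00811) or replicate 2 (0.00801) and without after first flush replicate 2 (0.0361). No gene of the 8 was higher at an unadjusted p under 0.05 in edgeR, DESeq2 or limma.

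The other pairs of stages entered the order of levels given above. After first flush against pinning, with 32.3% of all genes called, only laccase-7 passed, and it was lower (log2 change −1.94, SE 0.41, edgeR adjusted p = 0.00821). Second flush against pinning, with 13.7%, had laccases 9 and 11 lower. After second flush against pinning, with 27%, had laccase-4 higher and laccases 5 and 7 lower. After second flush against first flush, with 40.2%, had the same 5 genes lower as second flush against first flush, laccase-5 by −5.49 (SE 0.43, edgeR adjusted p = 1.67e-05). Among the 20 called changes in these 4 pairs and in after first flush and second flush against spawning, none reversed under an alternative, 9 kept the call under all of them and 11 lost it under at least 1. Those lost in these 4 pairs were laccase-7 in the first, laccases 9 and 11 in the second, laccases 4, 5 and 7 in the third and laccase-4 in the fourth. Of 40 pairs of neighbouring stages in the genes' orders of means, 8 were called, 32 were not, and 23 had overlapping libraries. Neighbours were formed by sorting these same means, so they lie closest by construction. The matching share over all genes was not counted, and these counts are not a result about the laccases.

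The deposited RPKM are scaled to each library's total but carry no further adjustment such as TMM. On them the balance of calls over all genes was different. In limma on log2(RPKM + 1), 68.4% of called genes were higher at first flush than at pinning, against 51.6% in edgeR, and 70.4% at first flush than at spawning, against 53.7%. The shares were 30.9% against 50.8% for second flush over after first flush, 39.6% against 53.7% for after second flush over after first flush and 71.2% against 53.6% for after second flush over spawning. The median log2 change of all genes in limma was 0.23 for first flush over pinning, 0.38 for first flush over spawning, 0.31 for after second flush over spawning, 0.16 for pinning over spawning and −0.12 for second flush over after first flush. Each called change of laccases 4 to 12, in all 15 pairs of stages and both differences, kept its direction on that scale.

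As a share of the laccases that carry the active site, the minor genes were a small fraction at spawning and a large one later. Their summed level was 167 and 171 RPKM at spawning, 140.0 and 179 RPKM at pinning and 547 and 500.2 RPKM at first flush. It was 200.05 and 148 RPKM after first flush, 159 and 102 RPKM at second flush and 131 and 132 RPKM after second flush. Both first flush sums stood above every other library, and laccase-9 made up 45.7% and 52.3% of it there and 74.2% and 74.1% at spawning.

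Laccases 1 to 3 together had 13658 and 14406 RPKM at spawning, 552 and 427 RPKM at pinning and 2144 and 2201 RPKM at first flush. They had 59.4 and 469 RPKM after first flush, 159 and 283 RPKM at second flush and 654 and 350.0 RPKM after second flush. The minor genes therefore held 1.21% and 1.17% of laccase RPKM at spawning, while at pinning their share was 20.2% and 29.5%. At first flush it was 20.3% and 18.5%, and after first flush 77.1% and 24.0%. Shares of 50.1% and 26.5% followed at second flush, and of 16.7% and 27.3% after second flush. All 10 later libraries were above both spawning libraries, and both first flush libraries were below those of after first flush and of second flush. Every other pair of later stages overlapped.

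**Figure D3:**
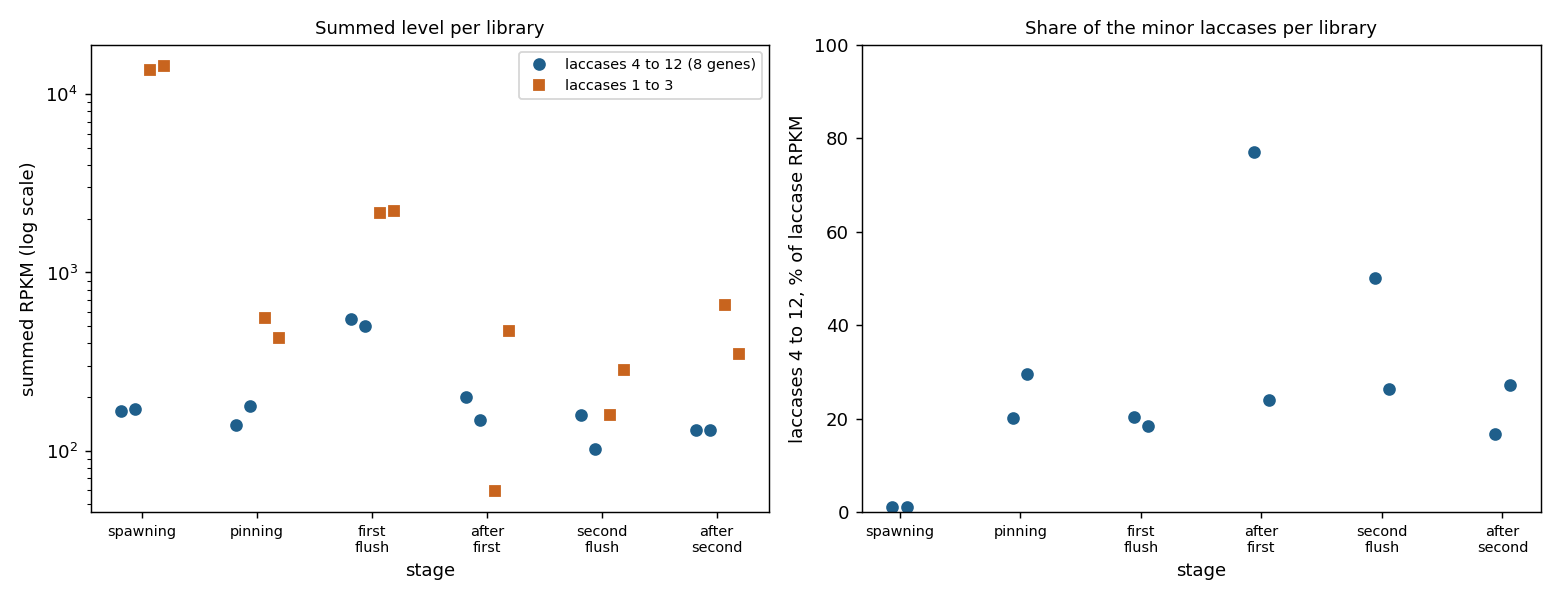
Left, summed RPKM (log axis) per library of the 8 minor laccases (circles) and of laccases 1 to 3 (squares) by stage; right, the minor genes' percent of the RPKM of both groups (linear axis, 0 to 100). The share was near 1.2% at spawning and 16.7% to 77.1% at the later stages, and the after first flush libraries lay furthest apart.

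The reads behind these shares were many, with 1633 to 8757 reads per library in the 8 genes. As a share of all reads of the laccase genes, small subunit included, they were 67.2% in after first flush replicate 1 (exact binomial 95% interval 65.7% to 68.6%) and 20.3% in replicate 2 (19.5% to 21.0%). These intervals cover counting error only, and reads without molecular identifiers are not independent molecules. The interval of each library lay far from the other, so the after first flush libraries differed by more than counting error. Laccase-9 alone was 0.0369 and 0.0352 times laccase-1 at spawning by RPKM, 2.74 and 3.74 times at pinning, 0.410 and 0.539 times at first flush and 10.97 and 2.72 times after first flush. Laccase-9 was also above laccase-1 in each library of the last 2 stages.

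For the 8 genes, 6 of 48 pairs of libraries of a stage were over 2-fold apart in RPKM. Of the 8814 tested genes, 174 at pinning to 520 after first flush were over 2-fold apart, by counts per TMM-adjusted total. That was a smaller share at every stage. The 6 pairs were laccase-5 at spawning, laccase-7 and laccase-10 at second flush, laccase-10 after second flush, and laccase-12 at second flush as well as after first flush. Of the after first flush libraries, replicate 1 held 2.58 times the laccase-12 of replicate 2 and 0.519 times the laccase-11, and also 0.240 times the laccase-1, 0.106 times the laccase-2 and 0.301 times the small subunit. At second flush, replicate 1 held 5.17 times the laccase-12 and 2.28 times the laccase-7 of replicate 2. Laccase-9 differed by less than 1.37-fold between the libraries of every stage.

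**Figure D4:**
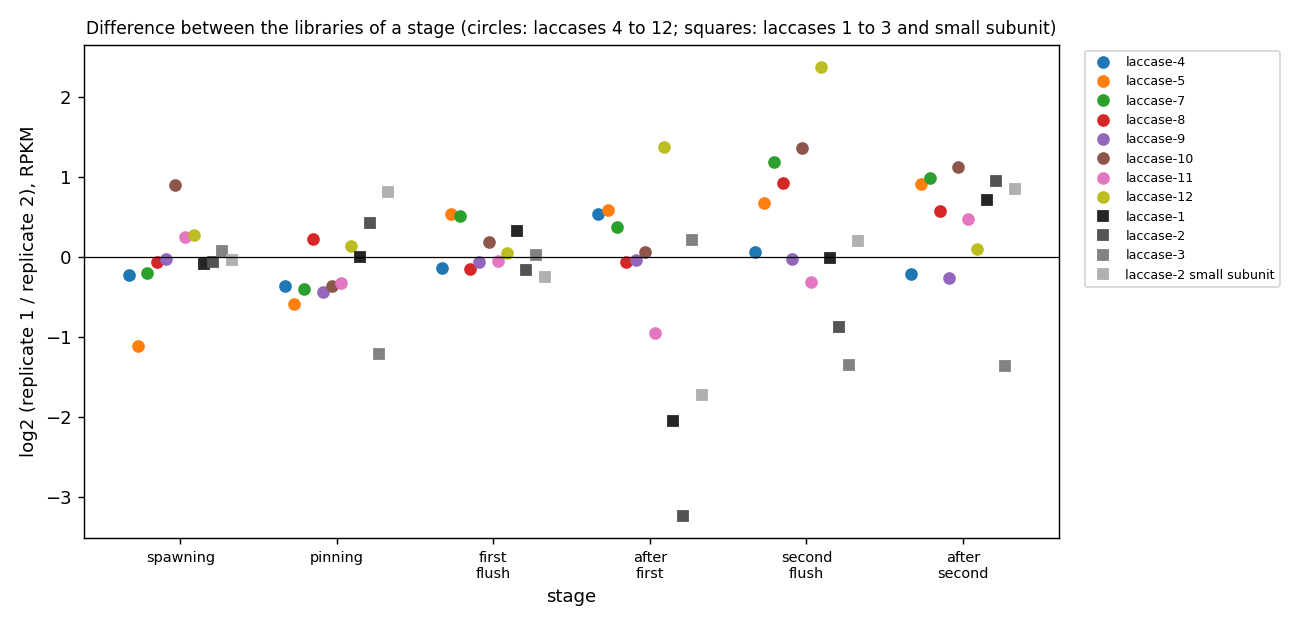
Log2 ratio of replicate 1 to replicate 2 in RPKM (vertical axis) for each laccase gene at each stage, with circles for laccases 4 to 12 and squares for laccases 1 to 3 and the small subunit. Most circles lie within 1 unit of 0, and the laccase-12 ratio was 2.58-fold after first flush and 5.17-fold at second flush, while laccase-2 had a ratio of 0.106 after first flush.

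Laccases 9 and 11 had the most alike patterns within the group, with a Pearson r of 0.95 in log2 CPM (counts scaled to the library's TMM-adjusted total) over the 12 libraries. Over the 28 pairs of minor genes r ran from −0.18 to 0.95 with a median of 0.39. Laccase-5 had r = 0.81 with laccase-11 and 0.73 with laccase-9, and laccase-4 had r = 0.75 with laccase-9. Laccase-12 had its lowest r with laccase-2 (−0.68) and negative values with laccases 4, 9, 10 and 11. Laccase-10 had r = 0.85 with the laccase-2 small subunit and 0.79 with laccase-1. These correlations describe libraries that share stages and scaling, and no test was made of them.

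**Figure D5:**
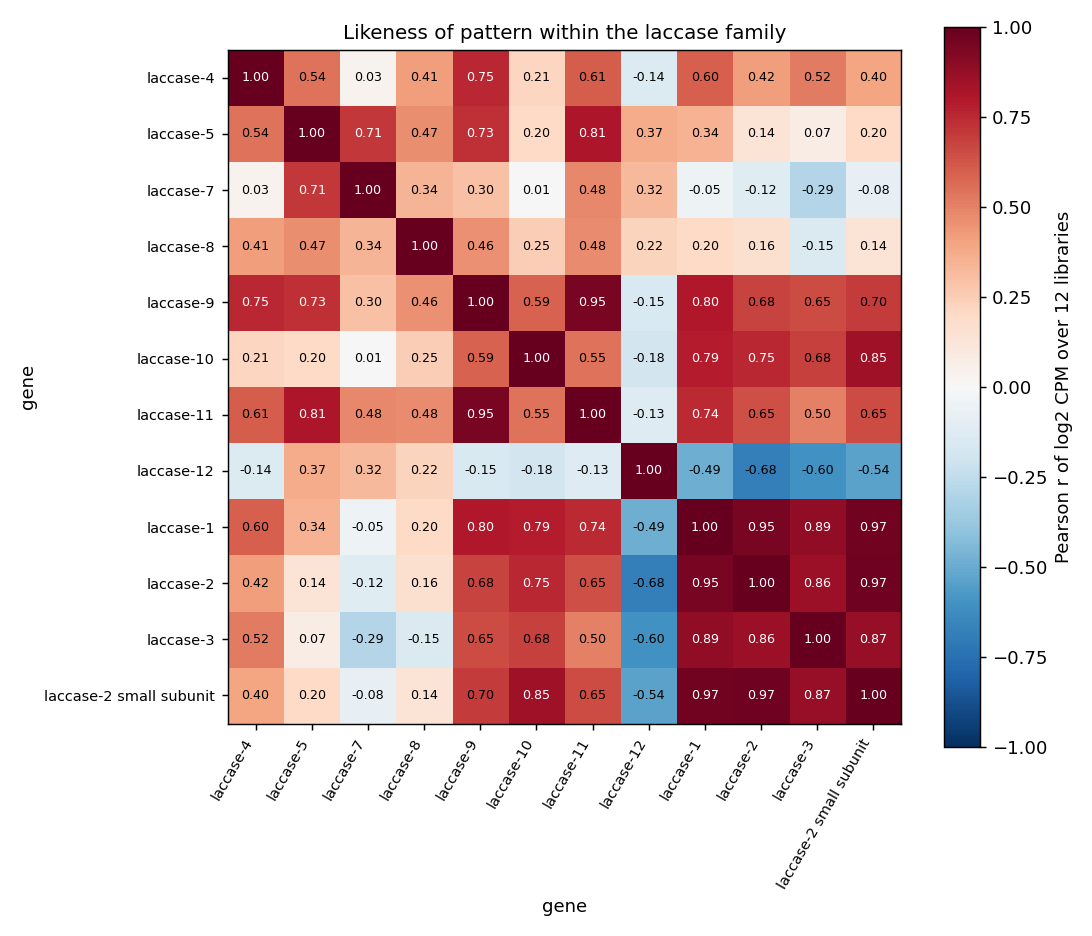
Pearson r of log2 CPM over the 12 libraries for each pair of laccase genes, with laccases 4 to 12 first and then laccases 1 to 3 and the laccase-2 small subunit. Laccases 9 and 11 reach 0.95 and laccase-12 has r from −0.68 to −0.49 with the genes of the last block.

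The genes most like each minor laccase over the 12 libraries were taken as the 3 highest r of 4413 other described genes, laccases included. For laccase-9 they were a peroxiredoxin (gene 64972, r = 0.96), an enzyme class that removes peroxides, an esterase or lipase (gene 115910, r = 0.95) and then laccase-11. The peroxiredoxin had 136 ± 16 RPKM at first flush and 10.2 ± 6.9 RPKM at pinning. For laccase-11 they were a cytochrome P450 (gene 116469, r = 0.95), laccase-9 and the same esterase or lipase (r = 0.94). The cytochrome P450, from a family of heme monooxygenases, had 21.3 ± 2.6 RPKM at first flush and 2.20 ± 0.82 RPKM at pinning.

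For laccase-5 the most alike were calcium binding protein 39 (gene 196148, r = 0.96), DNA ligase 4 (gene 206080, r = 0.92) and a trehalose 6-phosphate synthase/phosphatase (gene 120329, r = 0.92), which makes the storage sugar trehalose. Laccase-7 was most like a 4-nitrophenyl phosphatase (gene 206220, r = 0.94), an acid phosphatase (gene 192925, r = 0.92) and a phenylacetate 2-hydroxylase (gene 213191, r = 0.91), an enzyme of aromatic acid breakdown. The acid phosphatase had 270.1 ± 34.1 RPKM at first flush and 71.5 ± 13.0 RPKM at pinning. Laccase-4 was most like a regulator of nonsense transcripts 3 (gene 187731, r = 0.88), cell division control protein 24 (gene 183670, r = 0.87) and an argonaute-like protein (gene 188820, r = 0.86).

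Laccase-12 was most like an oligosaccharyltransferase gamma subunit (gene 190476, r = 0.87), part of the complex that adds sugar chains to secreted proteins, a nicotinamide riboside kinase (gene 178287, r = 0.87) and a TFIID subunit (gene 178999, r = 0.86). Laccase-8 was most like an exo-galacturonidase of pectin (gene 194942, r = 0.92), a protein kinase (gene 117856, r = 0.88) and an aldose 1-epimerase (gene 194630, r = 0.88). Laccase-10 was most like the ESCRT-II subunit VPS36 (gene 209196, r = 0.91), the laccase-2 small subunit and a ribosome recycling factor (gene 135775, r = 0.84). For laccases 8 and 10 these rest on very few reads.

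In the gene order of the H97 genome in RefSeq, laccases 9, 10 and 11 lie close together. All 8 genes matched there by laccase name, 3 of them by gene number as well. The table of genes used for this order names no scaffolds, so scaffold ends could not be checked and were taken where start positions fall. On that basis laccase-9 and laccase-10 are adjacent, and 2 protein-coding genes stand between laccase-10 and laccase-11. Adjacent laccase-9 and laccase-10 were unlike in level, at 256 and 1.19 RPKM by mean at first flush. One gene between laccase-10 and laccase-11, gene 194715, has no description in the files and matched by number. It had 157 and 216 RPKM at first flush and 15.7 and 27.1 RPKM at pinning (log2 change 2.91, SE 0.45, edgeR adjusted p = 0.000779). After first flush it had 6.69 and 0.512 RPKM (log2 change −5.73 against first flush, SE 0.56, edgeR adjusted p = 5.25e-05). Its r was 0.88 with laccase-9 and 0.86 with laccase-11. The other gene between them, 120946, was at 0.178 RPKM by mean at first flush and 0 at pinning. Before laccase-9, gene 120942 went the other way after first flush, at 1.92 RPKM by mean there and 0.548 RPKM at first flush (log2 change 1.76, SE 0.55, edgeR adjusted p = 0.0189), with r of −0.32 and −0.41. Past laccase-11, gene 54710 was listed at 0 at first flush, and gene 209232 averaged 58.3 RPKM at first flush and 27.9 RPKM at pinning (log2 change 0.84, SE 0.17, edgeR adjusted p = 0.00209), with r of 0.53 and 0.63. Elsewhere laccase-5 and laccase-6 had 1 gene between them, and laccase-6 and laccase-7 had 7. Laccase-4 and laccase-8 had 28 genes between them, laccase-7 and laccase-3 had 15, and laccase-3 and laccase-12 had 13.

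Other genes of copper and phenol chemistry were called in both directions at first flush. Of all tested genes, 25.1% were higher and 23.6% lower at first flush than at pinning, and 26.1% higher and 26% lower after first flush than at first flush. At first flush against pinning, copper supply genes (transporters, a chaperone, an exporting ATPase and metallothioneins, with 5 of 12 genes metallothionein activators by name) had 2 of 11 tested higher and 4 lower, with a median log2 change of −0.22. A metallothionein expression activator, the list's most abundant gene (gene 79223), fell to 74.7 ± 18.8 RPKM at first flush, against 334 ± 17 RPKM at pinning (log2 change −2.38, SE 0.45, edgeR adjusted p = 0.00301). After first flush against first flush 7 of 11 were higher and 2 lower, with a median of 0.78. At pinning against spawning 3 were higher and 2 lower, beside 29.3% and 25.2% of all tested genes. A list meant for peroxidases and peroxide producers had 8 of 37 higher and 10 lower at first flush and 7 higher and 13 lower after it. Most of its genes are annotated as choline dehydrogenases, and its only peroxidase by name is a manganese peroxidase. Their secretion and peroxide production are not part of these data. Choline dehydrogenase 188178 rose by 5.35 at first flush (SE 0.25, edgeR adjusted p = 2.65e-07) to 216 ± 53 RPKM. An alcohol oxidase (gene 195553) was the largest faller of that list, at 10.6 ± 10.2 RPKM after first flush and 278 ± 57 RPKM at first flush (log2 change −4.73, SE 0.78, edgeR adjusted p = 0.00181).

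Genes acting on aromatic acids, phenols and quinones had 7 of 28 higher and 8 lower at first flush and 6 each way after it. At first flush the counts of these last lists were near the shares of all genes and are not a result about the lists. NADPH quinone reductase 196626 was the largest riser of that list, at 40.0 ± 20.4 RPKM after first flush and 4.23 ± 0.57 RPKM at first flush (log2 change 3.21, SE 0.41, edgeR adjusted p = 0.000181). The Fet3 ferroxidase (gene 225781), a multicopper oxidase of iron uptake, did not pass edgeR's test at first flush (log2 change −0.56, SE 0.26, adjusted p = 0.1005). It fell to 20.8 ± 0.60 RPKM at second flush, against 126 ± 59 RPKM after first flush (log2 change −2.47, SE 0.28, edgeR adjusted p = 0.000979). Of the 4 major laccase genes, laccase-1 was the 1 called higher at first flush against pinning (log2 change 4.24, SE 0.57, edgeR adjusted p = 0.000571), and 3 were called lower after it.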

How the data were processed

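Per the file headers, the authors deposited for every gene and library a count of unique reads, the gene length, the percent of that length covered, and an RPKM. The deposited RPKM equal the count over length and over the library total, with no further scaling of libraries to one another. Genes missing from a table had no reads there and were set to 0. The aligner, genome build and strandedness were not given in the sources used here, so overlapping and antisense genes are uncertain. Only unique reads were counted by the authors, so close paralogs such as laccases are uncertain, and strain A15 is not the H97 strain of the RefSeq names (assembly Agabi_varbisH97_2).

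Counts were filtered with edgeR's filterByExpr (minimum count 10, total 15), scaled by the TMM method, with factors of 0.834 to 1.11, and modelled in edgeR 4.0.16 by its robust quasi-likelihood fit with a term per stage over all 12 libraries, leaving 6 residual degrees of freedom. Calls needed a two-sided Benjamini-Hochberg adjusted p under 0.05 over 8814 genes. The SE is the size of the log2 change over the root of F. Alternatives were DESeq2 1.42.0 (its size factors and its test), no filter, limma 3.58.1 on log2 RPKM with pseudocounts of 1 and 0.1 (mean of at least 0.5 RPKM), a replicate block, the compared stages alone, and each library left out. The procedure was tested on simulated data. R 4.3.3 and Python 3.11.15 were used.

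The genes and lists (major laccases, other multicopper oxidases, copper supply, peroxidases and peroxide producers, aromatic and quinone metabolism, mushroom tissue) were chosen with earlier results of these data known. Ubiquinone and respiratory chain genes were taken out of the aromatic list once the annotation was seen. Named genes are the 8 laccases, the 3 described genes of highest r with each, and from the lists some of those with the largest called rise or fall or the highest level. The named tyrosinases, the mannose-binding lectin 222139 and the genes of the gene order paragraph were chosen after their values were seen. Sequences and coordinates were not used here.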

Additional observations from a re-analysis of the deposited data

Results flagged for a closer look

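Of the 8 minor laccases, 4 changed differently at entry into the 2 flushes and 5 on leaving them, by a test of the difference itself, beside 42% and 39.4% of all tested genes in either direction. Laccases 8, 10 and 12 passed neither test. For entry into the second flush less entry into the first, the log2 difference was −1.44 for laccase-4, −4.67 for laccase-5, −1.89 for laccase-9 and −2.84 for laccase-11. For leaving the second flush less leaving the first, it was 1.01 for laccase-4, 3.02 for laccase-5, 1.73 for laccase-7, 2.17 for laccase-9 and 3.61 for laccase-11. Both sets share the first flush libraries, whose submitters' codes have a letter of their own, so a batch and that stage cannot be told apart.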

How the results depend on the processing

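Of the 37 gene results called in the 9 main pairs of stages and the differences, none reversed under an alternative. Over them, apart from leaving out a library, 250 kept direction and call and 9 lost the call, and over the single libraries left out 410 kept it and 34 lost it. DESeq2 gave 1 gene lower after second flush against second flush, 0 lower at first flush against spawning and 2 lower after second flush against after first flush. limma on RPKM, with either pseudocount, gave 1 lower at second flush against after first flush and 0 lower at first flush against spawning. With the compared stages alone, 2 were higher at pinning, 0 higher at second flush, 0 lower after second flush against after first flush and 1 higher after second flush against spawning. Of all genes, that fit called 5795 of 8451 at pinning and 46 of 8602 at second flush in either direction. It called 223 of 8635 after second flush against after first flush and 5453 of 8562 after second flush against spawning. With all libraries these counts were 4799, 1967, 1435 and 5249, each of 8814. The replicate numbers did not pair the libraries, since same-numbered libraries of 15 pairs of stages deviated together with r of −0.24 to 0.20, and over 0.1 in 1 pair. A fit with the replicate number as a block gave 1 gene lower at second flush (laccase-9, adjusted p = 0.0409), 1 higher after second flush (laccase-9, adjusted p = 0.0495) and 0 lower after second flush against after first flush. With a library left out, the members called ranged from 1 to 2 higher and 2 to 4 lower at pinning, 4 to 5 higher at first flush, 0 to 1 higher and 4 to 5 lower after first flush, and 0 to 1 each way at second flush. They ranged from 4 to 8 lower at second flush against first flush, 0 to 2 lower after second flush against after first flush, 4 to 5 higher and 0 to 1 lower at first flush against spawning, 3 to 4 lower after second flush against spawning, 5 to 7 over all stages, 4 to 5 lower for the difference at flush entry, and 4 to 6 higher and 0 to 1 lower for that after the flushes.

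For the 6 other pairs of stages, alternatives were added after seeing the data, and of 375 values of their 20 called changes 325 kept the call and 50 lost it, with none reversed. The results that changed sign were not called with all libraries. At pinning laccase-8 was −0.044 with DESeq2's size factors, −0.045 with its test, −0.022 on the compared stages and −0.000403 with the block. Laccase-10 at first flush was 0.045 and 0.081 in limma with pseudocounts of 1 and 0.1. In limma with either pseudocount laccase-9 after second flush against after first flush was −0.023, and laccase-4 after second flush against spawning was 0.028 and 0.030. With a library left out, log2 changes ran from −0.042 to 1.12 for laccase-5 and −0.11 to 0.11 for laccase-8 at pinning, and from −0.31 to 0.043 for laccase-10 at first flush. At second flush against after first flush they ran from −0.39 to 0.14 for laccase-4, −0.76 to 0.043 for laccase-8 and −0.72 to 0.23 for laccase-11, and against first flush from −1.66 to 0.62 for laccase-12. After second flush against second flush they ran from −0.22 to 1.15 for laccase-10 and −1.75 to 0.53 for laccase-12. After second flush against after first flush they ran from −0.10 to 0.43 for laccase-4, −0.11 to 0.23 for laccase-9, −0.70 to 0.32 for laccase-10 and −0.34 to 0.61 for laccase-11. The flush-entry difference of laccase-10 ran from −1.10 to 0.14. The causes were not tested. Depth limits laccases 8 and 10, with at most 37 reads in a library.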
